A study of Mus musculus with 6 samples.

Results

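The genes described here encode the receptors that detect glutamate, the transporters that load or clear it, and the scaffold proteins that hold the receptors at the synapse. They are 36 genes chosen by symbol, and all 36 are among the 22173 genes listed. They fall into 4 AMPA, 5 kainate, 7 NMDA, 1 delta and 6 metabotropic receptor genes, 2 vesicular and 3 plasma membrane transporter genes, and 8 scaffold genes. RNA of whole retina of wild-type C57BL/6J mouse pups at postnatal day 17 was sequenced in 3 libraries from oxygen-induced retinopathy (OIR) and 3 Control libraries. The OIR pups were kept in 75% oxygen on postnatal days 7 to 12 and in room air on days 12 to 17, and the Control pups stayed in room air on days 7 to 17. In this model, oxygen halts and reverses vessel growth, and the return to room air leaves a hypoxic retina that grows abnormal vessels. The series asks which genes change with that growth. Nothing in the labels ties a library to its own animal or litter. The p-values thus set the difference between groups only against the spread of these libraries, and that spread may be technical.

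Glutamate carries the visual signal from photoreceptors to bipolar cells and from bipolar cells to amacrine and ganglion cells. AMPA, kainate and NMDA receptors are ion channels built of several subunits, and metabotropic receptors act through G proteins, often at the releasing terminal. In the retina, OFF bipolar cells and horizontal cells read photoreceptor glutamate through AMPA and kainate receptors, ON bipolar cells through a metabotropic receptor, and ganglion cells through AMPA and NMDA receptors. Vesicular transporters fill synaptic vesicles with glutamate, and transporters in the plasma membrane end the signal by taking it up.

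Each file holds 1 RPKM value per gene, reads scaled by the length of the gene and the size of the library. Levels of different genes can thus be set side by side only as far as these lengths hold. The values put the lengths used at 2940 bases for Slc17a7 and 46216 bases for Dlg2. Depth recovered from the values was 35615501 to 38025623 reads per library. Genes with at least 1 RPKM in at least 3 libraries were tested with limma on log2(RPKM + 1), and a gene was called at an adjusted p under 0.05. Of 12112 tested genes, 1407 (11.6%) were higher and 875 (7.22%) lower in OIR, and with median-of-ratios scaling 1281 (10.6%) were higher and 1313 (10.8%) lower. Lens genes took 0.553% of the reads in OIR 2, 6.35% in Control 3 and at most 0.0581% in each other library, so these 2 lens-rich libraries were also left out together. Genes that define the retina were present in every library, with summed rod markers at 13014 to 13433 RPKM in OIR and 10956 to 13232 RPKM in Control.

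Sequences are shown for the 4 called members with a single start site in the RefSeq table, since they let a reader set the promoters of 2 members that rose beside those of 2 that fell. The table held 35 promoters for 25 of the 36 genes, and 9 of the 13 called members were among them. Each runs 5′ to 3′ from 250 bases before to 50 bases after the start, on GRCm38.p6. The kainate receptor genes Grik3 (chr4:125490446-125490745, + strand) and Grik2 (chr10:49788705-49789004, - strand) moved in opposite directions. The glutamate transporter gene Slc1a7 (chr4:107968156-107968455, + strand) was higher in OIR, and the AMPA receptor gene Gria2 (chr3:80802786-80803085, - strand) was lower. Capitals mark matches, on either strand, to ACGTG and GCGTG (the core bound by hypoxia-inducible factors), GGGCGG (the GC box), TAATCC (the core bound by CRX and OTX2) and TATAAA (the TATA box).
Grik3: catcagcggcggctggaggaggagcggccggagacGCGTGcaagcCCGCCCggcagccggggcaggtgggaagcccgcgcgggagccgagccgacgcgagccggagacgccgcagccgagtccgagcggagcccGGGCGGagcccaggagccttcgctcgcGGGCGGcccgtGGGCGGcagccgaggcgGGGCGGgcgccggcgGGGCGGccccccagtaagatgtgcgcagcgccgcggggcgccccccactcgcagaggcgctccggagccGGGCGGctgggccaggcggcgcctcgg
Slc1a7: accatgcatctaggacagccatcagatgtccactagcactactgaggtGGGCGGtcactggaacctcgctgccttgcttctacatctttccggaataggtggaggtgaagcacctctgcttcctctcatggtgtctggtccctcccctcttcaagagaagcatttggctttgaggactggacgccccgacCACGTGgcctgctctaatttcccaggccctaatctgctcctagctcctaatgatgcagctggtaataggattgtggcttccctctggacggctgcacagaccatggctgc
Gria2: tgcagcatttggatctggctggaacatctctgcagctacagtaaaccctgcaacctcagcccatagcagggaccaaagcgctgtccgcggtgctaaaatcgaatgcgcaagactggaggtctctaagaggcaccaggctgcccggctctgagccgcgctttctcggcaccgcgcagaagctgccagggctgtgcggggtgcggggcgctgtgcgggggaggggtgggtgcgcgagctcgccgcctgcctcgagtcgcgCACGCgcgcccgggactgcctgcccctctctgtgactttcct
Grik2: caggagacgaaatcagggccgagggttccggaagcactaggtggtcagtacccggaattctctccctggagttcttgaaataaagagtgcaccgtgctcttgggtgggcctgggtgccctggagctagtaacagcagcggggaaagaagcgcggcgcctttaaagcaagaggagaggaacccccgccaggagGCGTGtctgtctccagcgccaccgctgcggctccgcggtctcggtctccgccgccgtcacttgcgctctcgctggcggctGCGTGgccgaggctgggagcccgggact
Grik3 held 7 GC boxes and 1 GCGTG, and 82.0% of its bases were G or C. Grik2 held 2 GCGTG and Gria2 held 1, and neither had a GC box. Slc1a7 held 1 GC box and 1 CACGTG, in which ACGTG is read on both strands and the 2 matches overlap. Of all 32851 promoters in the table, 19.6% held ACGTG, 32.4% GCGTG, 35.7% the GC box, 7.06% TAATCC and 13.6% TATAAA. Of the 35 promoters of these genes, 7 held ACGTG, 16 GCGTG, 17 the GC box, 1 TAATCC and 3 TATAAA. The match to TAATCC was at 1 of the starts listed for Dlg4, and those to TATAAA at 1 start each of Dlg2, Homer2 and Grin3b. The median share of G and C was 61.0% in these 35 and 52.7% in all promoters. A match describes letters and does not show a bound factor.

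More glutamate genes were lower than higher in OIR. Of the 36, 31 reached the minimum for testing, 11 were lower, 2 were higher and 18 did not pass, where 7.22% of all tested genes were lower and 11.6% higher. The 11 lower genes were Gria2, Gria3, Grik1, Grik2, Grin3a, Grm4, Grm7, Grm8, Slc17a8, Homer2 and Dlg2, and the 2 higher genes were Grik3 and Slc1a7. The median log2 fold change of the 31 was -0.16, against 0.025 over all tested genes, and 74.2% of the 31 had a negative fold change, against 44.7% of all tested genes. Fold changes were between -0.65 for Slc17a8 and 0.50 for Grik3, so no member changed 2-fold on this scale. The OIR and Control values did not overlap, with OIR lower, in 12 of the 31, where 15% of all tested genes did so, and with OIR higher in 3, where 23.6% did so. Whole retina was sequenced, so fewer cells of a type and less RNA per cell cannot be told apart in any of these values.

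Only Slc17a8, Grik1 and Grm8 passed under each of the 16 alternatives, and all 13 called genes kept their sign. A call could end with little change in fold change. With single libraries left out, the log2 fold change of Grm4 was between -0.29 and -0.23, against -0.26 with all libraries. That of Gria3 was between -0.59 and -0.37, against -0.47. Such a fit also rests on fewer libraries, and what ended each call was not tested. The number of lower genes among the 31 was 16 without both lens-rich libraries, where 16% of all tested genes were lower and 17.3% higher. It was 13 with lens reads removed, where 10.4% of all were lower and 11% higher, and 13 with median-of-ratios scaling. It was 5 with no filter and 6 with the lens level as a covariate, where 2.95% and 6.14% of all were lower and 6.73% and 10.4% higher. When single libraries were left out, it was 3 without Control 1 and 3 without OIR 1, where 2.19% and 1.75% of all were lower. It was 4 without OIR 3, where 2.87% were lower, 5 without Control 2, where 3.48% were lower, 8 without Control 3, where 8.83% were lower, and 13 without OIR 2, where 10.7% were lower. The number of higher genes was 0 without OIR 1, where 4.24% of all were higher, and 1 without Control 1, Control 3 or OIR 3, where 5.43, 9.97 and 5.75% were higher. It stayed at 2 without Control 2 or OIR 2, where 7.77% and 14.5% of all were higher.

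**Figure D1:**
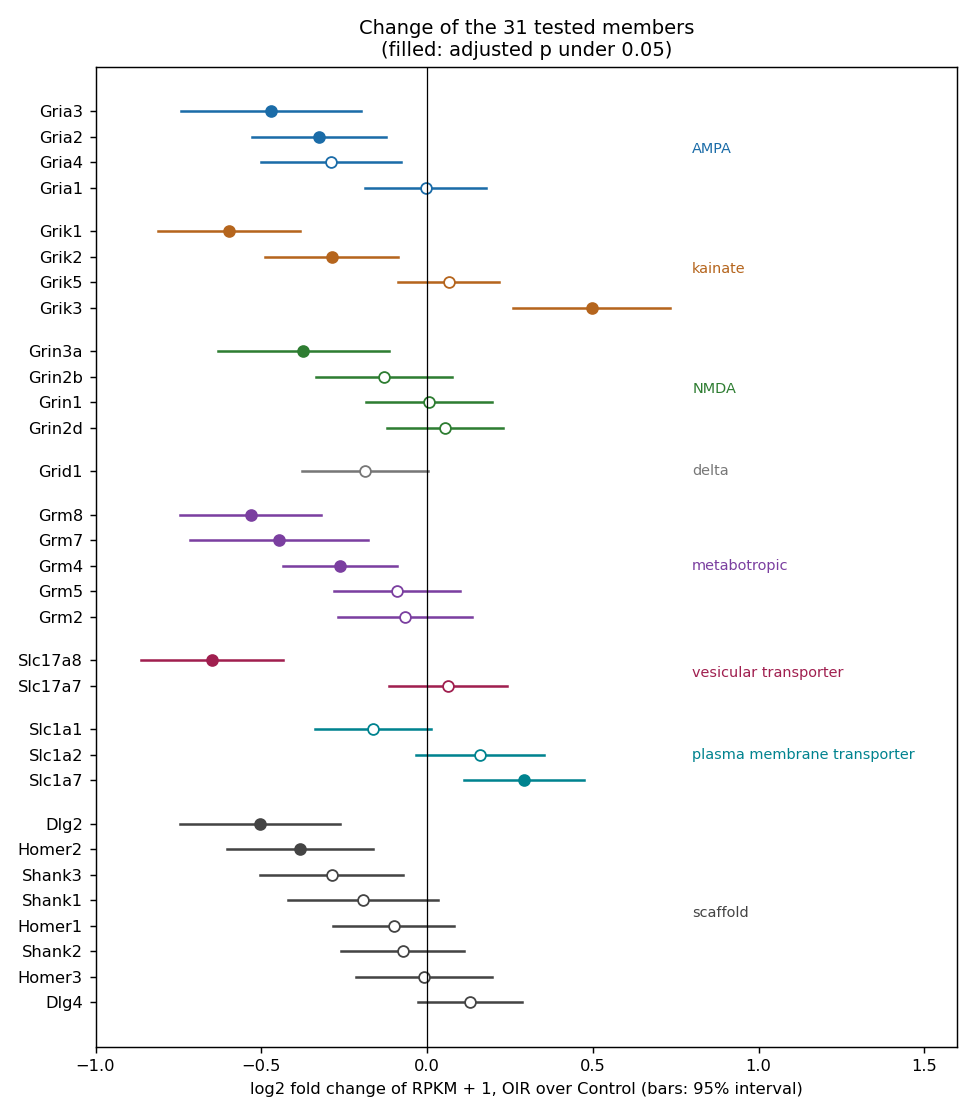
Log2 fold change of RPKM + 1, OIR over Control, on the horizontal axis, for the 31 tested genes by class, with 95% intervals from limma as bars and filled circles at an adjusted p under 0.05. Slc17a8, Grik1 and Grm8 lie furthest to the left, and Grik3 and Slc1a7 are the filled circles on the right.

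Levels of these genes covered a wide range in the retina. Slc17a7, which encodes the vesicular transporter of photoreceptor and bipolar terminals, was highest at 685 ± 24.0 RPKM in OIR and 656 ± 56.5 RPKM in Control (SD, n = 3 each, as for all values given with ±). The scaffold gene Dlg4 came next, at 165 ± 7.81 RPKM in OIR and 151 ± 9.65 RPKM in Control, followed by Slc1a7, at 76.4 ± 6.48 RPKM in OIR and 62.1 ± 4.84 RPKM in Control. Among these receptor genes, Grin1, Grik1 and Gria4 stood highest in both groups, and the gap between Grin1 and Grik1 in Control, at 24.0 and 25.1 RPKM, was below their spread. In OIR, Grin1 averaged 24.0 RPKM, and Grik1, Gria4 and Grik5 averaged 16.2, 16.01 and 15.0 RPKM, apart by less than the SD of Grik1. The lowest was Grin3b, at 0.327 ± 0.0810 RPKM in OIR and 0.210 ± 0.0234 RPKM in Control, with 25 to 53 reads per library behind it. At least 302 reads per library stood behind each tested member.

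Among AMPA receptor genes, Gria2 and Gria3 fell and Gria1 and Gria4 did not pass. AMPA receptors carry most fast excitatory transmission. Gria3, the gene of the GluA3 subunit, was at 4.23, 5.98 and 4.74 RPKM in OIR 1 to 3, against 8.46, 6.99 and 6.37 RPKM in Control 1 to 3. Gria2 encodes GluA2, the subunit whose edited form keeps calcium out of the channel, and was at 6.91, 8.57 and 7.17 RPKM in OIR 1 to 3, against 10.3, 8.82 and 9.96 RPKM in Control 1 to 3. Every OIR value of these genes lay below every Control value, and OIR 2 stood nearest to Control in both. Gria3 had a log2 fold change of -0.47 (SE 0.122, adjusted p = 0.0264), and Gria2 a log2 fold change of -0.32 (SE 0.0917, adjusted p = 0.0328).

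Gria4, the gene of GluA4, had the highest RPKM of the 4 AMPA receptor genes. It was at 14.6, 18.3 and 15.1 RPKM in OIR 1 to 3, against 21.7, 19.5 and 18.1 RPKM in Control 1 to 3. Its groups overlapped through OIR 2 and Control 3, and its log2 fold change of -0.29 had an adjusted p of 0.0563. Gria1, the gene of GluA1, was at 12.4, 12.7 and 13.4 RPKM in OIR 1 to 3, against 13.8, 13.5 and 11.4 RPKM in Control 1 to 3. Its log2 fold change was -0.0042, with a 95% interval from -0.19 to 0.18, and its sign changed among the alternatives. Summed over the 4 genes, AMPA receptor RNA was at 41.4 ± 3.84 RPKM in OIR and 49.6 ± 4.31 RPKM in Control. The call of Gria2 ended without Control 1, Control 3, OIR 1 or OIR 3, at adjusted p of 0.124, 0.0757, 0.142 and 0.108, and with no filter (0.0722) and with the lens level as a covariate (0.0541), and that of Gria3 without Control 1, Control 2, OIR 1 or OIR 3, at adjusted p of 0.0969, 0.0649, 0.106 and 0.0802, and with no filter (0.0700) and with the lens level as a covariate (0.0504). Gria4 passed without OIR 2, at an adjusted p of 0.00606, and with median-of-ratios scaling (0.0384), with upper-quartile scaling (0.0369), with lens reads removed (0.0393), with limma-voom (0.0439) and without both lens-rich libraries (0.00198).

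The kainate receptor genes moved in both directions. Grik1 encodes GluK1, the subunit through which OFF bipolar cells of the mouse read cone signals, and it fell to 0.646 of its Control level. It was at 15.8, 18.03 and 14.9 RPKM in OIR 1 to 3, against 26.4, 27.2 and 21.7 RPKM in Control 1 to 3. The OIR and Control values were well apart, the highest OIR value being below the lowest Control value by more than the SD of either group. Grik1 had a log2 fold change of -0.60 (SE 0.0966, adjusted p = 0.00368).

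Grik3, the gene of GluK3, a subunit with low affinity for glutamate, rose to 1.67 times its Control level. It was at 2.78, 2.28 and 3.23 RPKM in OIR 1 to 3, against 1.82, 1.70 and 1.45 RPKM in Control 1 to 3, with no overlap, and OIR 3 stood highest. Its log2 fold change of 0.50 (SE 0.107, adjusted p = 0.0117) was the largest rise among the tested members. Grik2, the gene of GluK2, was at 1.36, 1.61 and 1.38 RPKM in OIR 1 to 3, against 2.23, 1.87 and 1.89 RPKM in Control 1 to 3, and fell with a log2 fold change of -0.29 (SE 0.0906, adjusted p = 0.0482). Grik5 encodes GluK5, a high-affinity subunit that needs a partner from Grik1, Grik2 or Grik3 to form a channel. It was at 15.0, 15.0 and 15.0 RPKM in OIR 1 to 3, against 14.8, 14.9 and 13.2 RPKM in Control 1 to 3, and did not pass, with a log2 fold change of 0.065 and a 95% interval from -0.088 to 0.22. Grik4, the gene of the other high-affinity subunit, GluK4, was below the minimum for testing, at 1.05, 0.951 and 0.936 RPKM in OIR 1 to 3, against 0.802, 0.830 and 0.668 RPKM in Control 1 to 3, and its groups did not overlap. Under the filter at 0.2 RPKM its log2 fold change was 0.16, with an adjusted p of 0.179. The call of Grik3 ended without OIR 1, at an adjusted p of 0.0519. That of Grik2 ended without Control 1, Control 2, Control 3, OIR 1 or OIR 3, at adjusted p of 0.173, 0.0845, 0.0612, 0.170 and 0.149, and with a pseudocount of 0.1 (0.05002), with no filter (0.0659), with a filter at 0.2 RPKM (0.0509) and with the lens level as a covariate (0.0689).

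Among NMDA receptor genes, only Grin3a passed. NMDA receptors need a GluN1 subunit, encoded by Grin1, and open when glutamate and a co-agonist bind while the membrane is depolarized. Grin3a encodes GluN3A, a glycine-binding subunit that lowers calcium entry and is known from the young nervous system. It was at 0.952, 1.38 and 1.10 RPKM in OIR 1 to 3, against 2.11, 1.85 and 1.39 RPKM in Control 1 to 3. The groups were separated by a narrow gap between OIR 2 and Control 3, with a log2 fold change of -0.37 (SE 0.117, adjusted p = 0.0481). Grin1 was at 22.5, 24.8 and 24.7 RPKM in OIR 1 to 3, against 26.6, 24.3 and 21.1 RPKM in Control 1 to 3. Its log2 fold change was 0.0063, with a 95% interval from -0.18 to 0.20, and its sign changed among the alternatives.

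The genes of the glutamate-binding GluN2 subunits were low and none passed. Grin2d was at 2.20 ± 0.0503 RPKM in OIR and 2.08 ± 0.0982 RPKM in Control and Grin2b at 1.34 ± 0.201 RPKM in OIR and 1.55 ± 0.101 RPKM in Control. The lengths used were 6624 bases for Grin2d, 24900 for Grin2b and 20201 for Grin2a. Grin2b had 1114 to 1528 reads per library and Grin2d 469 to 547, so the order of their levels rests on these lengths. Grin2b, the gene of the subunit that dominates early in development, had 1.21, 1.57 and 1.23 RPKM in OIR 1 to 3 and 1.65, 1.56 and 1.45 RPKM in Control 1 to 3, with overlapping groups and an adjusted p of 0.357. Grin2a, the gene of the subunit that rises as synapses mature, was below the minimum for testing, at 0.419, 0.669 and 0.461 RPKM in OIR 1 to 3, against 0.814, 0.673 and 0.687 RPKM in Control 1 to 3. Its groups did not overlap, though OIR 2 lay just below the lowest Control library. Grin2c and Grin3b were also below the minimum, at 0.330 ± 0.0863 RPKM in OIR and 0.344 ± 0.0340 RPKM in Control, and at 0.327 RPKM in OIR and 0.210 RPKM in Control, where the groups of Grin3b did not overlap. Under the filter at 0.2 RPKM neither passed, nor did Grin2a, with adjusted p of 0.898, 0.267 and 0.168. Grid1, the gene of the delta receptor GluD1, a synapse organizer that glutamate does not open, was at 4.52, 4.96 and 4.27 RPKM in OIR 1 to 3, against 5.78, 5.47 and 4.84 RPKM in Control 1 to 3. Its groups overlapped, and its log2 fold change of -0.19 did not pass, with an adjusted p of 0.152, but passed without both lens-rich libraries (0.0211). The call of Grin3a ended without Control 1, Control 2, OIR 1 or OIR 3, at adjusted p of 0.174, 0.125, 0.184 and 0.119, and with no filter (0.0967), with a filter at 0.2 RPKM (0.0548) and with the lens level as a covariate (0.0559).

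Grm4, Grm7 and Grm8, metabotropic receptor genes of group III whose proteins sit on releasing terminals and dampen release, were lower in OIR, and the other tested members of the class did not pass. Grm6, the group III gene of the ON bipolar receptor, which is not among the 36, averaged 39.8 ± 4.89 RPKM in OIR and 40.5 ± 2.42 RPKM in Control, with an adjusted p of 0.834. Grm8, the gene of mGluR8, was at 4.61, 4.94 and 4.27 RPKM in OIR 1 to 3, against 7.31, 7.98 and 6.12 RPKM in Control 1 to 3. Its values were separated by a gap of over 1 RPKM, and its log2 fold change of -0.53 (SE 0.0967, adjusted p = 0.00595) passed under every alternative. Grm7, the gene of mGluR7, a receptor of the active zone, was at 2.37, 3.68 and 2.87 RPKM in OIR 1 to 3, against 4.73, 4.57 and 3.83 RPKM in Control 1 to 3. OIR 2 stood just below Control 3, and Grm7 had a log2 fold change of -0.45 (SE 0.121, adjusted p = 0.0298). Grm4, the gene of mGluR4, was at 2.75, 2.76 and 2.81 RPKM in OIR 1 to 3, against 3.73, 3.51 and 3.33 RPKM in Control 1 to 3. The OIR libraries were nearly equal and all below Control, with a log2 fold change of -0.26 (SE 0.0779, adjusted p = 0.0403).

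Grm2, of group II, and Grm5, of group I, did not pass. Grm5, which encodes a receptor that raises calcium in the cell, was at 2.13, 2.35 and 2.28 RPKM in OIR 1 to 3, against 2.74, 2.39 and 2.27 RPKM in Control 1 to 3, with overlapping groups and an adjusted p of 0.502. Grm2, which encodes a receptor that lowers cyclic AMP, averaged 6.57 ± 0.469 RPKM in OIR and 6.95 ± 0.807 RPKM in Control, with an adjusted p of 0.648. Grm3, the other gene of group II, was below the minimum for testing. It was at 0.323, 0.560 and 0.314 RPKM in OIR 1 to 3, against 0.618, 0.516 and 0.557 RPKM in Control 1 to 3, where OIR 2 lay inside the Control range, with an adjusted p of 0.230 under the filter at 0.2 RPKM. Summed over the 6 genes, levels were 19.6 ± 1.59 RPKM in OIR and 25.0 ± 2.49 RPKM in Control. The call of Grm4 ended without Control 1, Control 2, OIR 1, OIR 2 or OIR 3, at adjusted p of 0.146, 0.103, 0.130, 0.0546 and 0.109. That of Grm7 ended without Control 1, Control 2, OIR 1 or OIR 3, at adjusted p of 0.110, 0.0905, 0.119 and 0.0812, and with no filter (0.0760) and with the lens level as a covariate (0.0570).

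**Figure D2:**
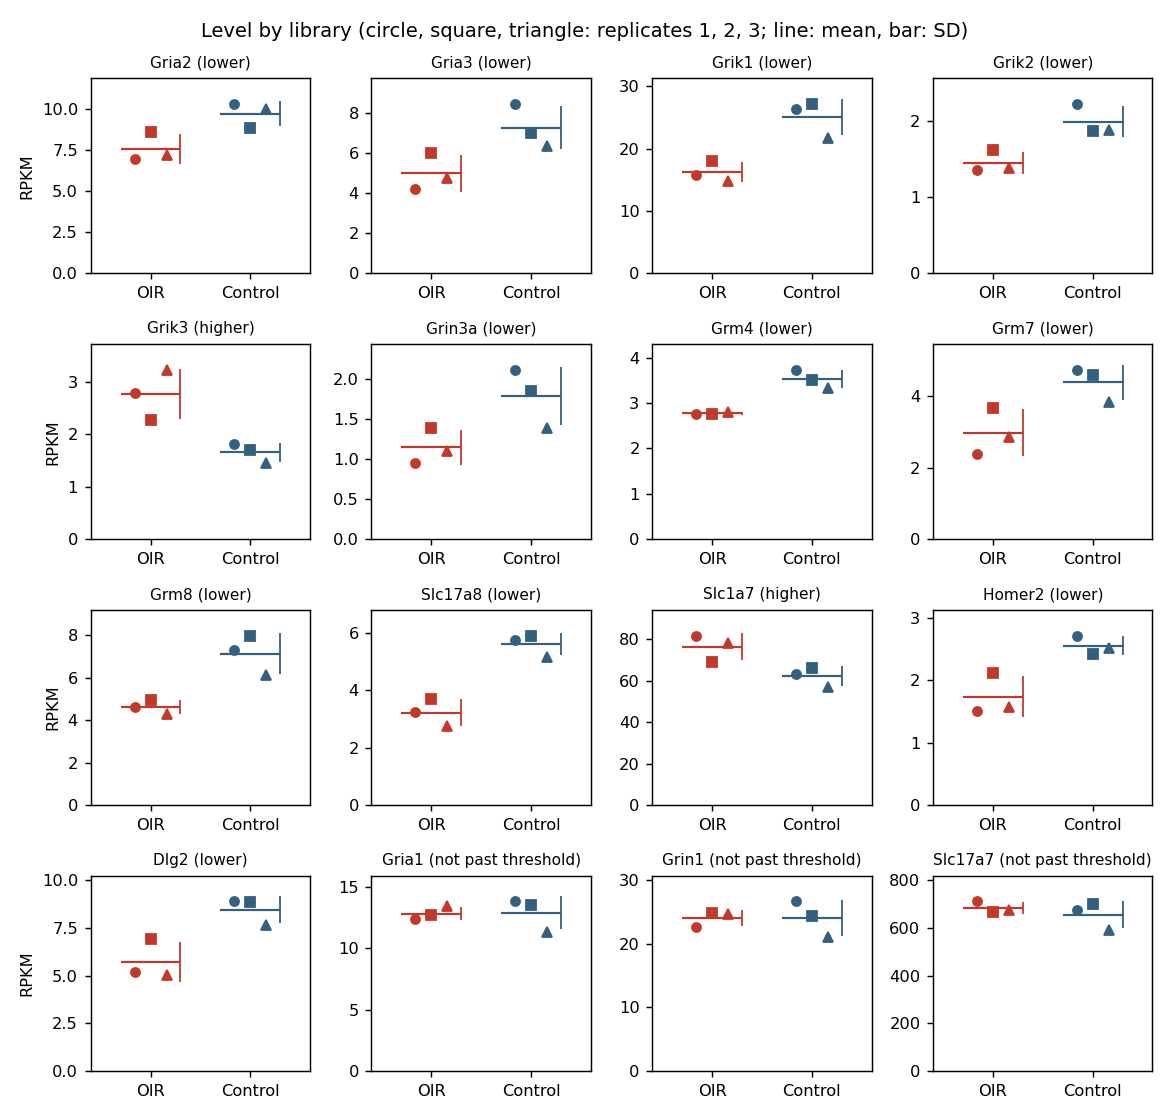
RPKM in each library, OIR at the left and Control at the right of each panel, for the 13 called genes and, at the end, Gria1, Grin1 and Slc17a7, which did not pass. Symbols are libraries, horizontal lines the means and vertical bars the SD. OIR 2, the square at the left, is the OIR value nearest to Control in 10 of the 11 lower genes and in both higher genes.

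The transporter genes differed by protein. Slc17a8 encodes VGLUT3, the vesicular transporter of a class of amacrine cell, and it fell most of the tested members, to 0.575 of its Control level. It was at 3.24, 3.68 and 2.73 RPKM in OIR 1 to 3, against 5.73, 5.90 and 5.16 RPKM in Control 1 to 3. Even the highest OIR library stood well below the lowest Control library. Slc17a8 had a log2 fold change of -0.65 (SE 0.0969, adjusted p = 0.00233). Slc17a7, which encodes VGLUT1 and is far more abundant, was at 711, 665 and 677 RPKM in OIR 1 to 3, against 675, 701 and 592 RPKM in Control 1 to 3. Its log2 fold change was 0.065, with a 95% interval from -0.11 to 0.24, and its sign changed among the alternatives. The level of Slc17a7 over that of Slc17a8 was 219, 181 and 248 in OIR 1 to 3, against 118, 119 and 115 in Control 1 to 3, a ratio that does not depend on library scaling.

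Slc1a7 encodes EAAT5, an uptake carrier of photoreceptor and bipolar terminals that also passes chloride. It was at 81.7, 69.2 and 78.3 RPKM in OIR 1 to 3, against 63.4, 66.2 and 56.8 RPKM in Control 1 to 3, with no overlap, and OIR 2 stood nearest to Control. It rose with a log2 fold change of 0.29 (SE 0.0817, adjusted p = 0.0313). Slc1a2, the gene of the carrier GLT-1, which the retina has in cones and bipolar cells, was at 26.5 ± 0.893 RPKM in OIR and 23.7 ± 2.96 RPKM in Control and did not pass, with an adjusted p of 0.227. Slc1a1, the gene of the neuronal carrier EAAC1, was at 13.5, 15.5 and 15.1 RPKM in OIR 1 to 3, against 16.9, 17.6 and 15.2 RPKM in Control 1 to 3. Its groups overlapped, and its log2 fold change of -0.16 did not pass, with an adjusted p of 0.174, but passed without both lens-rich libraries (0.0232). The level of Slc1a7 over that of Slc1a1 was 6.04, 4.46 and 5.19 in OIR 1 to 3, against 3.75, 3.76 and 3.73 in Control 1 to 3. The call of Slc1a7 ended without Control 1, Control 3, OIR 1 or OIR 3, at adjusted p of 0.0823, 0.0690, 0.139 and 0.103, and with no filter (0.0727).

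Of the 8 scaffold genes, Dlg2 and Homer2 fell and none rose. Dlg2 encodes a membrane-associated guanylate kinase that anchors receptors and channels, and it was at 5.22, 6.91 and 5.03 RPKM in OIR 1 to 3, against 8.90, 8.85 and 7.66 RPKM in Control 1 to 3. OIR 2 lay nearest to Control, and Dlg2 had a log2 fold change of -0.50 (SE 0.109, adjusted p = 0.0120). Dlg4, the gene of its relative PSD-95, which the retina concentrates in photoreceptor terminals, was at 173, 157 and 164 RPKM in OIR 1 to 3, against 147, 162 and 144 RPKM in Control 1 to 3. Its groups overlapped, with a log2 fold change of 0.13 and an adjusted p of 0.232. The level of Dlg4 over that of Dlg2 was 33.2, 22.8 and 32.7 in OIR 1 to 3, against 16.5, 18.3 and 18.7 in Control 1 to 3.

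Homer proteins tie group I metabotropic receptors to Shank proteins. Homer2 was at 1.51, 2.11 and 1.58 RPKM in OIR 1 to 3, against 2.72, 2.42 and 2.52 RPKM in Control 1 to 3, with OIR 2 well above the other OIR libraries but below all Control libraries. It had a log2 fold change of -0.38 (SE 0.1001, adjusted p = 0.0249). Homer1 and Homer3 did not pass, with log2 fold changes of -0.10 and -0.0096, and Homer3 changed sign among the alternatives. Shank3, the gene of a scaffold that links Homer to the receptor anchors, was at 1.97, 2.66 and 2.04 RPKM in OIR 1 to 3, against 2.98, 3.04 and 2.73 RPKM in Control 1 to 3. Its groups did not overlap, yet its log2 fold change of -0.29 had an adjusted p of 0.0633. It passed without OIR 2, at an adjusted p of 0.00887, and with median-of-ratios scaling (0.0459), with upper-quartile scaling (0.0447), with lens reads removed (0.0478), with limma-voom (0.0207) and without both lens-rich libraries (0.00744). Shank1 and Shank2 had adjusted p of 0.213 and 0.582, and Shank1 passed without OIR 2, at an adjusted p of 0.0474, and without both lens-rich libraries (0.0250). The call of Dlg2 ended without Control 1 or OIR 1, at adjusted p of 0.0552 and 0.0588. That of Homer2 ended without Control 1, Control 2, Control 3, OIR 1 or OIR 3, at adjusted p of 0.0935, 0.0525, 0.0541, 0.111 and 0.0850, and with no filter (0.0536).

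The make-up of a receptor class, as the share of each subunit in the summed RPKM of its class, does not depend on the scaling of the libraries. It does rest on the gene lengths used, and is given as a description, with no test. Of kainate receptor RNA, Grik1 made up 43.8, 47.6 and 42.0% in OIR 1 to 3, against 57.3, 58.5 and 55.8% in Control 1 to 3. The share of Grik3 was 7.73, 6.01 and 9.12% in OIR 1 to 3, against 3.95, 3.65 and 3.73% in Control 1 to 3. Both shares were clear of overlap, and so was that of Grik5, at 41.8, 39.6 and 42.3% in OIR 1 to 3, against 32.2, 32.1 and 33.9% in Control 1 to 3. The level of Grik3 over that of Grik1 was 0.176, 0.126 and 0.217 in OIR 1 to 3, against 0.0689, 0.0624 and 0.0668 in Control 1 to 3, highest in OIR 3.

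In the AMPA class, Gria2 made up 18.2, 18.8 and 17.7% in OIR 1 to 3, against 19.0, 18.1 and 21.8% in Control 1 to 3, with overlapping groups, although its level fell. The mean share of Gria2 in OIR minus that in Control was -1.37 percentage points with all libraries, -0.29 without Control 3 and -2.13 without Control 2. The share of Gria1 was 32.5, 27.8 and 33.2% in OIR 1 to 3, against 25.5, 27.7 and 24.8% in Control 1 to 3, and OIR 2 cleared Control 2 by a narrow margin. Gria3 made up 11.1, 13.1 and 11.7% in OIR 1 to 3, against 15.6, 14.3 and 13.9% in Control 1 to 3. Of the GluN2 subunits, Grin2d took 53.8, 46.7 and 50.8% in OIR 1 to 3, against 43.5, 44.5 and 44.9% in Control 1 to 3. Grin2a took 10.4, 13.8 and 10.8% in OIR 1 to 3, against 16.2, 14.5 and 15.5% in Control 1 to 3, and Grin2b 29.96, 32.4 and 28.8% in OIR 1 to 3, against 32.9, 33.5 and 32.7% in Control 1 to 3. The share of Grin2d was higher and those of Grin2a and Grin2b lower in each OIR library than in any Control library, with the smallest gaps in OIR 2. Among the metabotropic genes, Grm2 took 33.8, 33.2 and 33.7% in OIR 1 to 3, against 28.6, 27.3 and 27.4% in Control 1 to 3, and Grm8 25.1, 23.1 and 22.6% in OIR 1 to 3, against 27.3, 30.6 and 27.6% in Control 1 to 3.

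**Figure D3:**
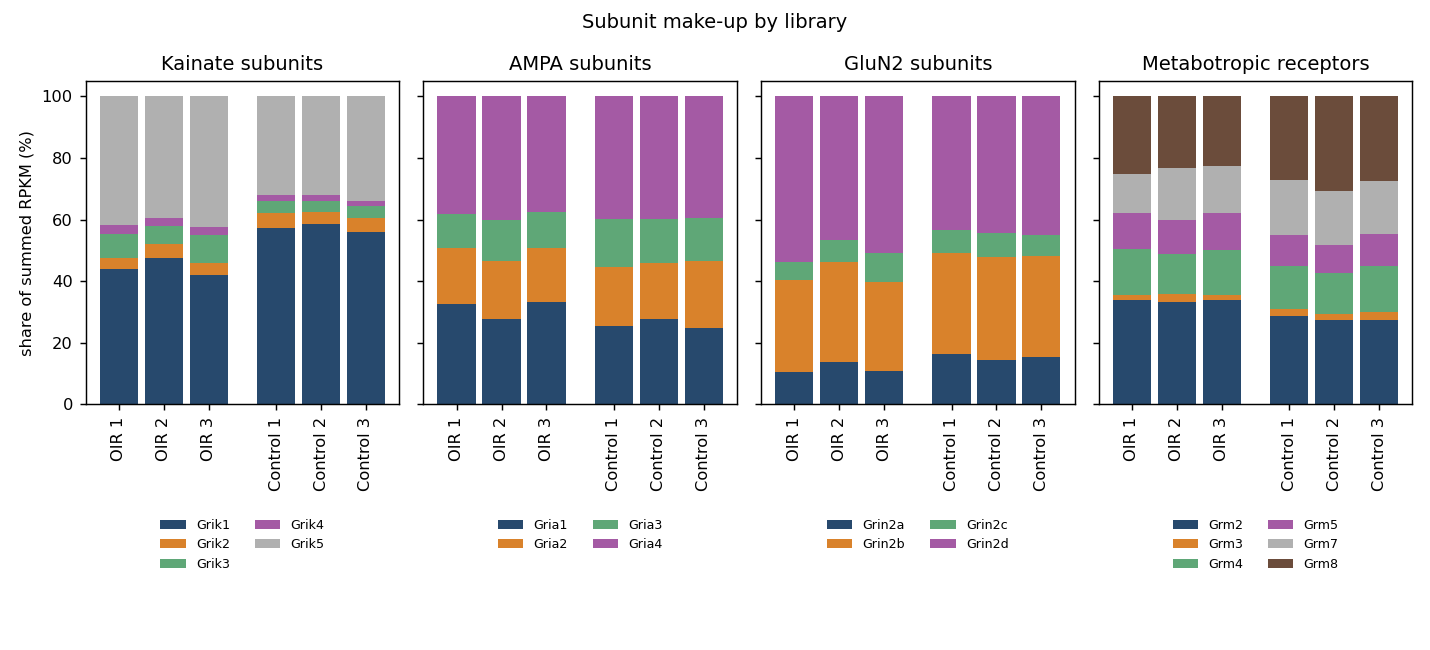
Share of each gene in the summed RPKM of its class, in percent, 1 bar per library with OIR at the left and Control at the right of each panel. Grik1 takes 42.0 to 47.6% of the kainate bar in OIR and 55.8 to 58.5% in Control, and Grin2d takes 46.7 to 53.8% of the GluN2 bar in OIR and 43.5 to 44.9% in Control.

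Other genes of glutamate transmission were set beside these as 4 lists. Auxiliary subunits attach to AMPA and kainate receptors and set their gating and traffic. Of 14 such genes, 13 were tested, 3 were lower and none higher, with a median log2 fold change of -0.19, and 10 when both lens-rich libraries were left out. Gsg1l, the gene of an AMPA auxiliary subunit that dampens the channel, averaged 5.98 ± 0.445 RPKM in OIR and 8.56 ± 0.934 RPKM in Control, with an adjusted p of 0.00863. Neto2, the gene of a kainate auxiliary subunit, averaged 4.20 ± 1.04 RPKM in OIR and 6.48 ± 0.843 RPKM in Control, with an adjusted p of 0.0306. Cnih3, which encodes a cornichon that exports AMPA receptors, averaged 0.831 ± 0.147 RPKM in OIR and 1.29 ± 0.135 RPKM in Control, with an adjusted p of 0.0397. Its OIR values, 0.696 to 0.988 RPKM, were all under 1 RPKM. It thus reached the minimum for testing only through the Control libraries, where it is higher, and its call is to be read with that limit. Gsg1l passed under each alternative. The calls of Neto2 and Cnih3 ended without Control 1, Control 2, Control 3, OIR 1 or OIR 3, at adjusted p of 0.0580 to 0.120 for Neto2 and 0.0641 to 0.148 for Cnih3. The call of Neto2 also ended with no filter (0.0700) and with the lens level as a covariate (0.0634), and that of Cnih3 with no filter (0.0571) and with the lens level as a covariate (0.0678).

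Of 18 genes of receptor clustering and trafficking, 16 were tested, 2 were lower and none higher, with a median of -0.11, and 8 when both lens-rich libraries were left out. The lower genes were Dlgap1, which encodes a protein that joins Dlg to Shank proteins, and Nlgn3, which encodes an adhesion protein of the synapse. Dlgap1 averaged 7.36 ± 1.11 RPKM in OIR and 9.85 ± 0.847 RPKM in Control and Nlgn3 7.29 ± 0.683 RPKM in OIR and 9.25 ± 0.694 RPKM in Control, with adjusted p of 0.0272 and 0.0316. Both calls ended without Control 1, Control 2, OIR 1 or OIR 3, at adjusted p of 0.0868 to 0.118 for Dlgap1 and 0.0907 to 0.141 for Nlgn3. The call of Dlgap1 also ended with no filter (0.0696) and with the lens level as a covariate (0.0517), and that of Nlgn3 with no filter (0.0637).

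Of 8 remaining members of the receptor and transporter families, 7 were tested and 2 were higher, with a median of -0.031. Slc1a4, the gene of a carrier of neutral amino acids, averaged 9.32 ± 1.69 RPKM in OIR and 5.17 ± 0.400 RPKM in Control, and Slc1a3, the gene of the Müller glia carrier GLAST, 46.2 ± 1.39 RPKM in OIR and 39.6 ± 2.93 RPKM in Control, with adjusted p of 0.00254 and 0.0481. Slc1a4 passed under each alternative, and the call of Slc1a3 ended whichever library was left out, at adjusted p of 0.0578 to 0.133, and with median-of-ratios scaling (0.0517), with upper-quartile scaling (0.0519), with no filter (0.0779), with a filter at 0.2 RPKM (0.0537), with the lens level as a covariate (0.0643), with limma-voom (0.0573) and without both lens-rich libraries (0.07998). Without both lens-rich libraries Slc1a4 was higher and 2 genes lower. Of 9 genes of glutamate metabolism, all tested, Glul was lower and none higher, with a median of -0.066, and 4 when both lens-rich libraries were left out. Glul encodes glutamine synthetase, by which Müller glia convert glutamate, and averaged 1025 ± 116 RPKM in OIR and 1290.0 ± 103 RPKM in Control, with an adjusted p of 0.0359. Its call ended without Control 1, Control 2, OIR 1 or OIR 3, at adjusted p of 0.110 to 0.155, and with no filter (0.0763) and with the lens level as a covariate (0.0542). Over all tested genes, 7.22% were lower and 11.6% higher with all libraries, and 16% lower and 17.3% higher without both lens-rich libraries.

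Some markers of the inner retinal neurons that carry many of these genes were also called lower in OIR and none higher, and their part in the results was not tested. Members of the glutamate set were left out of the marker counts. Of 12 amacrine markers, 9 were lower and none higher, with a summed level of 511 to 693 RPKM in OIR and 753 to 817 RPKM in Control. Of 10 bipolar markers, 4 were lower and none higher, with 559 to 599.5 RPKM in OIR and 607 to 701 RPKM in Control. Of 4 tested OFF bipolar markers beside Grik1, 2 were lower, Tacr3 and Bhlhe22, with 28.7 to 35.2 RPKM in OIR and 39.8 to 46.4 RPKM in Control summed over the 5 measured. Of 11 ganglion markers, 3 were lower, Nefl, Nefh and Thy1, with 568 to 854 RPKM in OIR and 897 to 997 RPKM in Control. Rbpms, Pou4f1, Pou4f2 and Isl2 were among those that did not pass, with overlapping groups, though all 11 fold changes were negative. Sncg and Nefl, at 258 and 239 RPKM in Control, were the largest parts of that sum. Of 4 tested horizontal cell markers, Calb1 was lower, with 53.0 to 64.7 RPKM in OIR and 76.4 to 84.2 RPKM in Control over the 5 measured. Calb1 and Prox1, at 43.9 and 31.4 RPKM in Control, carried most of that sum, and Prox1, Lhx1 and Onecut1 did not pass. The OIR means of Onecut1 and of Onecut2, which was not tested, were 1.13 and 1.12 times those in Control. In none of these 5 lists did the summed ranges of OIR and Control overlap.

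Photoreceptor and glial markers were called in both directions. Of 8 rod markers, 2 were higher, Nrl and Nr2e3, and none lower, with a summed level of 13014 to 13433 RPKM in OIR and 10956 to 13232 RPKM in Control. Of 8 cone markers, 2 were higher, Opn1sw and Gnb3, and Arr3 was lower, with 982 to 1162 RPKM in OIR and 824 to 881 RPKM in Control. Of 9 Müller glia markers, 6 were lower and 2 higher, with 2227 to 2403 RPKM in OIR and 2396 to 2589.8 RPKM in Control. Glul and Slc1a3 are on this list as well as on those of metabolism and remaining family members. Higher in OIR were 6 of 7 microglia, 6 of 7 endothelial, 5 of 5 pericyte and 2 of 3 tested astrocyte markers. Lower were 1 of 3 pigment epithelium markers and 0 of 19 lens genes. Over all tested genes, 11.6% were higher and 7.22% lower. The pericyte marker Notch3 was under 1 RPKM in every Control library, at 0.770 to 0.885 RPKM. It thus reached the minimum for testing only through the OIR libraries, where it is higher, and its call is to be read with that limit. Without both lens-rich libraries, 11 amacrine, 7 bipolar, 9 ganglion and 2 horizontal cell markers were lower, where 16% of all tested genes were lower, against 7.22% with all libraries.

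**Figure D4:**
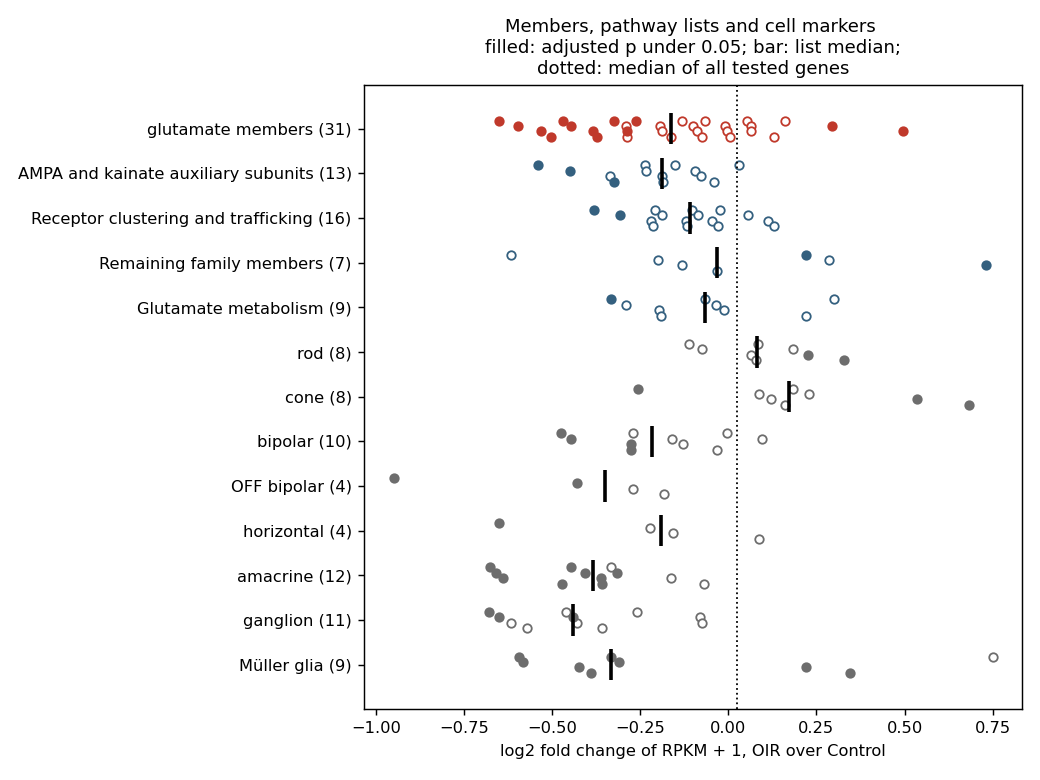
Log2 fold change of RPKM + 1, OIR over Control, of each tested gene (points, filled at an adjusted p under 0.05), for the 31 tested glutamate genes, the 4 pathway lists and markers of retinal cell types. Bars are list medians, and the dotted line is the median of all tested genes at 0.025. The glutamate genes have a median of -0.16, between those of the photoreceptor markers and those of the amacrine and ganglion markers.

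The libraries were not equally far apart. In 10 of the 11 lower genes, and in both higher genes, OIR 2 was the OIR library nearest to the Control mean, the exception being Grm4. Grm7 was at 54.1, 84.0 and 65.5% of its Control mean in OIR 1 to 3, and Slc17a8 at 57.9, 65.8 and 48.8%. Summed ganglion markers were at 568, 854 and 633 RPKM in OIR 1 to 3, and summed amacrine markers at 511, 693 and 548 RPKM, so OIR 2 stood nearest to Control in these as well. Among Control libraries, Control 3, with the most lens reads, was nearest to the OIR mean in 8 of the 11 lower genes. Its median-of-ratios scaling factor was 0.950, against 1.005 in Control 1 and 1.006 in Control 2, so its typical RPKM was lower. What part this scaling had in that count was not tested. Without OIR 2, 13 members were lower and 2 higher.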

How the data were processed

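RPKM values of the 6 libraries were used as deposited by the authors, 1 per gene symbol. The submitters' processing notes list TopHat2 2.0.12 and Bowtie2 2.0.6, with no settings. Not given in the sources used here are the genome build, annotation, counting program, strand and treatment of reads shared between related genes, and the library protocol in the labels describes another species. Library depth, gene lengths and reads were recovered from the steps of the values, and 17949 of 17953 genes above 0 gave whole reads within 0.02 of a read. Over the tested genes, lens genes included, differences in reads between libraries of a group were set against counting error. The chi-square per gene was 8.32 to 251 between Control libraries and 9.94 to 41.0 between OIR libraries, where counting error alone gives about 1. The spread thus exceeds counting error, and whether it comes from animals or from handling was not tested.

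RPKM values are not counts, so no count model served as the main test. Each adjusted p not given for an alternative is from limma 3.58.1 (R 4.3.3), fitted to log2(RPKM + 1) with its robust and trend settings. Group was the only term, with 4 residual degrees of freedom and two-sided p-values. Benjamini-Hochberg adjustment was over all 12112 tested genes, with a threshold of 0.05. An adjusted p given for an alternative is from the limma fit of that alternative, with its own libraries, values, terms and tested genes. The pseudocount of 1 makes fold changes of low genes too small. Levels given as a ratio use plain group means. The fit was also run on simulated reads with known changes. That simulation had no lens-rich library and gave all genes the same dispersion, so it cannot show how the fit performs on these libraries. The 36 genes, the lists and the alternatives were chosen with earlier results of these data known. Each class is given with its called members and its uncalled tested member of smallest adjusted p in every library. From each pathway list up to 4 called genes of smallest adjusted p are named, and other genes named were chosen after their values were seen. Levels of related genes were compared per length as the authors set it. List counts without the lens-rich libraries were added after seeing the data.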

Additional observations from a re-analysis of the deposited data

How the results depend on the processing

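With single libraries left out, genes higher over the retina numbered 513 to 1754, genes lower 212 to 1293, members higher 0 to 2 and members lower 3 to 13, against 1407, 875, 2 and 11 with all 6. Genes lower numbered 1313 with median-of-ratios and 1355 with upper-quartile scaling, 529 with no filter and 1943 without both lens-rich libraries. Members higher numbered 1 with no filter. Members lower numbered 5 with no filter and 6 with the lens level as a covariate. With a pseudocount of 0.1, a filter at 0.2 RPKM, lens reads removed or limma-voom on recovered reads, each of the 4 counts stayed within 1.5 times its value, and limma-voom called 1451 genes higher and 984 lower. In the no-filter fit 17953 genes were tested and adjusted for. The cause was not tested for any of these shifts, that of the no-filter fit included.

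With the replicate block, 1222 genes (10.1%) were higher and 809 (6.68%) lower, and 2 members higher and 8 lower, with Gria2, Grik2 and Grm4 no longer past the threshold (adjusted p 0.0516, 0.0777 and 0.0758). The calls of Cnih3 and Slc1a3 also ended (0.0604 and 0.0583). Deviations of same-numbered libraries correlated at 0.22, -0.44 and -0.41, and no library correlated best with its own number. The lens-rich libraries OIR 2 and Control 3 correlated at 0.49. Deviations from a mean of 3 libraries depend on each other, so these correlations cannot show whether libraries were paired.

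The mean share of Grin2b among GluN2 genes in OIR minus that in Control was -2.60 percentage points, and -5.04 with genes under 1 RPKM left out. The shares of Gria2, Grik1, Grin2a, Grin2b and Slc17a7 moved by less than 1 SD when single libraries were left out. Of the 13 called members, 13 kept their sign under each of the 16 alternatives and 3 their call. Of the 18 uncalled, 5 passed under some alternative, and Gria1, Grin1, Homer3 and Slc17a7 changed sign. Each tested member had at least 302 reads per library, and Grin3b, not tested, 25 to 53.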
